A study of Mus musculus with 6 samples.

Results

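Guanylate binding proteins (GBPs) and immunity-related GTPases (IRGs) are large GTPases of cell-autonomous immunity, and 9 of their genes were examined here together with Irf1, the gene of a transcription factor that acts on many of them. The 10 genes were taken by symbol: the GBP genes Gbp2, Gbp3, Gbp5 and Gbp7, the IRG genes Irgm1, Irgm2, Igtp, Iigp1 and Tgtp1, and Irf1. All 10 had an entry among the 54838 genes of the count tables. Neutrophils had been sorted by flow cytometry from corneas of mice at 24 h of infection with Pseudomonas aeruginosa PAO1, a widely used laboratory strain. Wild-type mice and Il1a -/- mice, which lack the cytokine IL-1 alpha, gave 3 libraries each, and all animals were infected. The labels name no mouse strain, sex or age, and no uninfected sample was analysed. The labels number biological replicates without naming animals, so each p-value measures only the spread among these libraries, which may be technical.

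Interferon gamma signals through its receptor to DNA elements called GAS and induces Irf1. IRF1 and the factors activated by type I interferon bind a second element, the ISRE, so GBP and IRG genes can respond to either class of interferon. The proteins coat bacteria and pathogen-containing vacuoles, promote their lysis, and help bacterial lipopolysaccharide reach caspase-11 (gene Casp4). IRGs fall into effectors with a conventional nucleotide-binding loop (Iigp1, Tgtp1) and regulators that protect the cell's own membranes (Irgm1, Irgm2, Igtp).

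The 4 GBP genes lie in a cluster on chromosome 3 (GRCm38, from the start of Gbp5 at 142493978 to the end of Gbp2 at 142638008, all on the plus strand). On chromosome 11 lie Irgm1 (48861968 to 48871683, minus strand), Tgtp1 (48985327 to 48994172, minus strand), Irf1 (53770014 to 53778374, plus strand), Igtp (58199556 to 58207591, plus strand) and Irgm2 (58199618 to 58222782, plus strand). The 250 bases before each RefSeq start site, which can differ from the GENCODE gene start given above, were taken from the RefSeq windows (build GRCm38.p6) and searched on both strands for the ISRE letters GAAANNGAAA and the GAS letters TTCNNNGAA. RefSeq windows matched 9 of the 10 genes, all but Iigp1. A gene with several start sites was counted once if any of its windows held the letters. The ISRE letters were found for 8 of these 9 genes, against 3.46% of 27025 genes with a window. GAS letters were found for 6 of the 9 genes, against 8.13% of all genes, and 5 held both in 1 window, against 0.4%. A match describes letters in the window and not binding.

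Stretches before the RefSeq start sites are shown because they differ between the members, and capitals mark the ISRE and GAS letters. Igtp, Irgm2 and Tgtp1 share an arrangement in which a GAS match is followed, after 2 bases, by an ISRE match. Tgtp2, a near copy of Tgtp1, has it too.
Igtp (chr11:58199496-58199540, plus strand): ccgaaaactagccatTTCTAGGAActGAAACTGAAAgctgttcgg
Irgm2 (chr11:58214887-58214931, plus strand): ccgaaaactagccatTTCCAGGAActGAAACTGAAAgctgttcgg
Tgtp1 (chr11:48992305-48992349, minus strand): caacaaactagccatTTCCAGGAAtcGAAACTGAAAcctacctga
Tgtp2 (chr11:49064264-49064308, minus strand): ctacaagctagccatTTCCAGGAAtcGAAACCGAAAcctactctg
Of the 45 bases, 44 were identical between Igtp and Irgm2, 38 between Tgtp1 and Tgtp2, and 34 between Irgm2 and Tgtp1.

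Irgm1 and the GBP genes carry the letters in other arrangements. Irgm1 and Gbp3 have 2 overlapping ISRE matches and no GAS match. Gbp2 has a single ISRE match. Gbp7 has 2 GAS matches ahead of its ISRE match. In Gbp5 the ISRE match stands 165 to 156 bases before the start and a GAS match 52 to 44 bases before it, and another GAS match lies farther upstream, outside the stretch shown. Irf1 has 2 windows, of which the one shown held a GAS match and neither held an ISRE match. Gbp3 also has a second window, without a match. Exons annotated by GENCODE M21 cover 30 of the 30 bases shown for Irgm1, 21 of 30 for Gbp2 and 18 of 110 for Gbp3. The marked letters of Irgm1 and Gbp2 thus lie in annotated exon, although before the RefSeq start.
Irgm1 (chr11:48871431-48871460, minus strand): cctgtttcaaGAAATAGAAACCGAAActga
Gbp2 (chr3:142620593-142620622, plus strand): aactcttttagTTTCACTTTCactgtctta
Gbp3 (chr3:142559934-142560043, plus strand): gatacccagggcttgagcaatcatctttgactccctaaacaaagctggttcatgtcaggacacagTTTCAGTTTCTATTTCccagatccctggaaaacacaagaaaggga
Gbp7 (chr3:142530226-142530335, plus strand): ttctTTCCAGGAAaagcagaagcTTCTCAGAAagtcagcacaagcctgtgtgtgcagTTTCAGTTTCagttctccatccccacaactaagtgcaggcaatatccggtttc
Gbp5 (chr3:142496759-142496898, plus strand): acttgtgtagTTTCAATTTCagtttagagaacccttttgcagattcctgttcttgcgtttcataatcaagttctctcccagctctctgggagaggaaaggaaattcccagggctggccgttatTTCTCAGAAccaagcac
Irf1 (chr11:53769904-53770013, plus strand): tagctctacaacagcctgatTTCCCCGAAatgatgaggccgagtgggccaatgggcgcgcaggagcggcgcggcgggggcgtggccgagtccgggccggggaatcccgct

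The libraries held 22855676 to 33626008 gene counts. Levels are given in CPM, counts scaled to a common normalised library size. Il1a was at 5116 to 8776 CPM in wild type and 2.89 to 5.37 CPM in the knockout, so each library carried the Il1a level of its label. Neutrophil genes were abundant in all 6 libraries, with S100a9 at 12571 to 15660 CPM and Csf3r at 2134 to 2489 CPM. Of 13 T and NK cell markers, 7 had 0 counts in every library (Cd3e, Cd4, Cd8a, Nkg7, Ncr1, Klrb1c and Prf1), and the 13 together reached 0.723 to 1.83 CPM. The 12 macrophage markers summed to 268.5 to 272.1 CPM in wild type and 325.1 to 361.3 CPM in the knockout. All 11 tested markers of that list had a higher estimate in the knockout, with a median log2 fold change of 1.87. Of the 11, 7 had an unadjusted p under 0.05 and 0 were called. Groups did not overlap for 5 of them, against 6.12% of all tested genes in that direction. Csf1r made up most of the sum at 164.3 to 188.1 CPM and 190.2 to 230.4 CPM, while C1qb, the macrophage complement gene, was at 0.740 to 1.26 CPM and 2.11 to 8.29 CPM. On the first principal component of log2 CPM knockout replicate 2 lay away from the rest, at 67.3 against -32.9 to 2.1 for the other 5 libraries, and held the highest C1qb level.

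No tested GTPase gene, and not Irf1, was called as different between the genotypes. The spread of the libraries reached 3.04-fold between the lowest and the highest library for single abundant members. Of the 10 genes, 9 passed the expression filter and were tested, and 0 were called at an adjusted p under 0.05 by edgeR's quasi-likelihood test. Over all genes the same test called 0.101% (12 of 11924), 0.0755% as higher and 0.0252% as lower in the knockout. None of the 9 had an unadjusted p under 0.05, which 5.99% of all genes had. DESeq2, which called 0.530% of all genes, and limma-voom called 0 of the members as well. Estimated differences were positive for 3 and negative for 6 of the 9, with a median log2 fold change of -0.08 beside 0.00 over all tested genes. Adjusted p-values of the 9 ranged from 0.94 to 0.995. The 95% interval excluded a 2-fold change in either direction for 6 of the 9: Irf1, Gbp2, Gbp7, Irgm1, Irgm2 and Igtp. It did not for Gbp3, Gbp5 and Iigp1. Groups of libraries overlapped for 8 of the 9, while 11.6% of all tested genes had groups that did not. Without knockout replicate 2 the members called were again 0. The sign of the estimate turned when single libraries were left out for Gbp2 (without knockout replicate 1, -0.074), Gbp7 (without wild-type replicate 2, 0.32), Irgm2 (without wild-type replicate 2, 0.16), Igtp (without wild-type replicate 2, 0.044) and Irf1 (without wild-type replicate 1, 0.12). It also turned without knockout replicate 2 for Gbp7 (0.29), Irgm2 (0.10), Igtp (0.022) and Irf1 (0.0076), and without knockout replicate 3 for Gbp7 (0.0089).

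**Figure D1:**
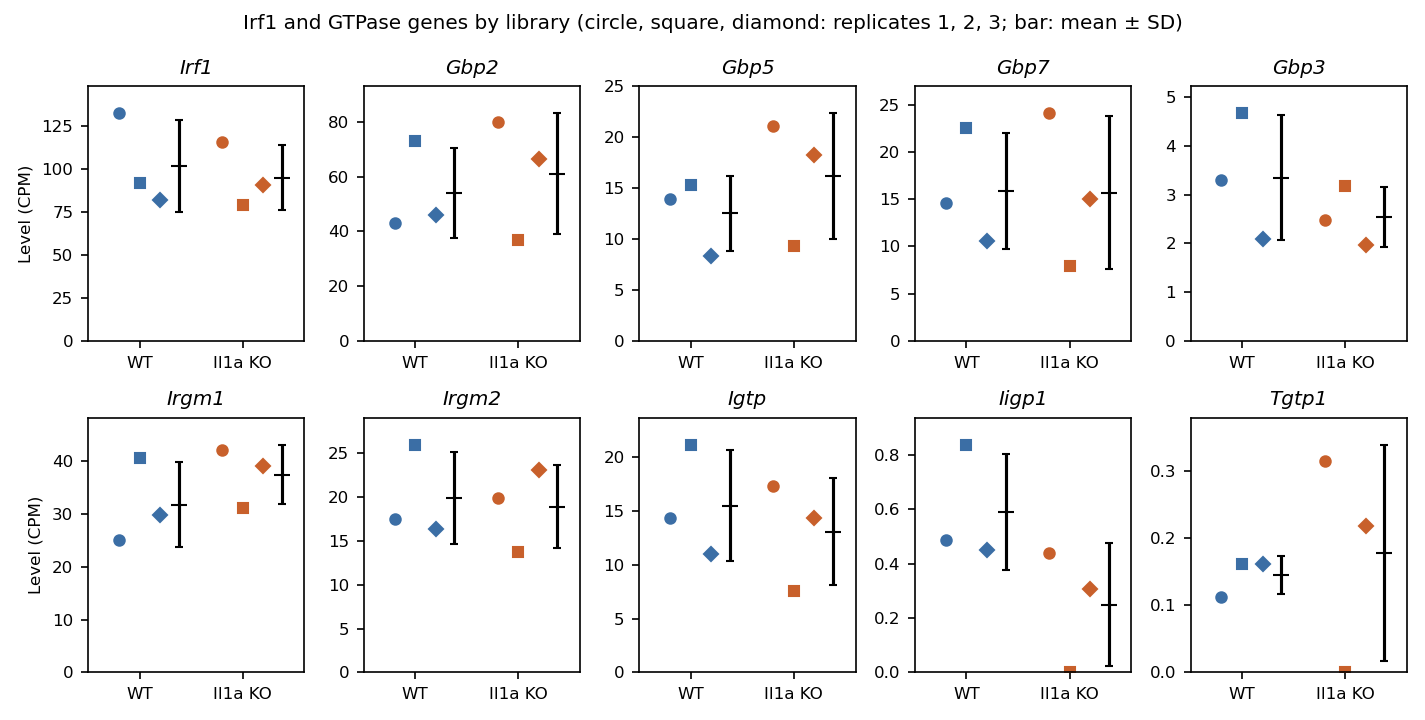
Level in CPM (linear axis from 0, own scale per gene) of Irf1 and the 9 GTPase genes in 3 wild-type (blue) and 3 Il1a knockout (orange) libraries. Symbols mark replicates 1 (circle), 2 (square) and 3 (diamond), and black bars give the mean ± SD. Wild-type and knockout points overlap for every gene but Iigp1, whose levels are under 1 CPM.

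Irf1 had the most counts of the members. Its level was 132.5, 91.8 and 81.9 CPM in wild-type replicates 1, 2 and 3 and 115.6, 78.9 and 90.7 CPM in knockout replicates 1, 2 and 3. Replicate 1 was the highest library in each genotype, and the groups overlapped. The means were 102.1 ± 26.8 CPM and 95.1 ± 18.7 CPM (SD, n = 3 each), with a log2 fold change of -0.10 (SE 0.20, edgeR adjusted p = 0.98).

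Gbp2, a GBP that is lipid-modified at its C-terminus and binds membranes, was the leading GTPase gene. It stood at 43.0, 73.1 and 46.02 CPM in wild type and 79.97, 36.9 and 66.4 CPM in the knockout. The lowest and the highest library were both knockouts. Means of 54.0 ± 16.6 and 61.1 ± 22.0 CPM (SD, n = 3 each) gave a log2 fold change of 0.18 (SE 0.28, 95% interval -0.46 to 0.81, edgeR adjusted p = 0.97).

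Gbp5, which promotes inflammasome activation, was at 13.9, 15.3 and 8.36 CPM in wild type and 21.1, 9.28 and 18.2 CPM in the knockout. Knockout replicates 1 and 3 lay above all wild-type libraries and knockout replicate 2 among them. Its log2 fold change of 0.37 (SE 0.31) was the highest estimate among the members, and its interval ran from -0.32 to 1.06 (edgeR adjusted p = 0.94). Gbp7, linked to oxidative and autophagic defence, was at 14.6, 22.6 and 10.5 CPM against 24.1, 7.92 and 15.0 CPM. Its knockout libraries spanned the wild-type range on both sides, and the means were nearly equal at 15.9 ± 6.1 and 15.7 ± 8.1 CPM (log2 fold change -0.02, SE 0.39). Gbp3 was the least abundant of the 4, at 3.29, 4.67 and 2.09 CPM in wild type and 2.48, 3.18 and 1.97 CPM in the knockout. The groups overlapped (log2 fold change -0.39, SE 0.37, edgeR adjusted p = 0.94).

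Among the regulatory IRGs, Irgm1 varied least between libraries. This gene, needed in mice for resistance to several intracellular pathogens, was at 25.0002, 40.6 and 29.8 CPM in wild type and 42.0, 31.1 and 39.2 CPM in the knockout. Wild-type replicate 2 lay within the knockout range, and the other wild-type libraries lay below it. The log2 fold change was 0.24 (SE 0.20, 95% interval -0.20 to 0.67, edgeR adjusted p = 0.94).

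Irgm2, a regulator located at the Golgi, was at 17.5, 25.9 and 16.3 CPM in wild type and 19.9, 13.7 and 23.1 CPM in the knockout. Igtp (also called Irgm3), found at the endoplasmic reticulum and lipid droplets, was at 14.3, 21.2 and 11.03 CPM and 17.4, 7.59 and 14.3 CPM. For both genes wild-type replicate 2 was the highest library and knockout replicate 2 the lowest. Their log2 fold changes were -0.08 (SE 0.24) and -0.25 (SE 0.32). Their annotated exons overlap by 162 bases on the same strand, where reads of the 2 genes cannot be told apart. Exons of Gbp7 overlap the pseudogene Gm43802 by 637 bases, and those of Irf1 overlap Gm17334 on the opposite strand by 135 bases, which an unstranded count does not separate.

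The effector IRG genes had few counts. Iigp1 on chromosome 18, whose protein builds up on parasite vacuoles, gave 13, 26 and 14 counts for wild type against 14, 0 and 7 counts for the knockout, or 0.487, 0.837 and 0.450 CPM and 0.440, 0 and 0.306 CPM. It was the single tested member whose groups did not overlap, while 5.48% of all tested genes had every knockout library below every wild-type library. The nearest libraries of the 2 genotypes had equal counts: 14 counts in wild-type replicate 3 gave a 95% exact Poisson interval of 0.246 to 0.756 CPM and 14 counts in knockout replicate 1 gave 0.241 to 0.738 CPM. The 0 counts in knockout replicate 2 allow up to 0.0925 CPM (3 counts of that library). The fitted log2 fold change was -1.25 (SE 0.99, edgeR adjusted p = 0.94), and it was -0.66 without knockout replicate 2, -2.01 without knockout replicate 1 and -2.30 by limma-voom. These intervals cover counting error only.

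Tgtp1 did not pass the filter, with 3, 5 and 5 counts for wild type against 10, 0 and 5 counts for the knockout. Its transcript matched that of Tgtp2 at 99.8% identity over 99.6% of its length, so reads can be shared and both levels are uncertain. A low count of either gene therefore does not show low expression. The 2 genes together had 12, 34 and 9 counts in wild type against 39, 22 and 8 counts without Il1a. Both genotypes held libraries at either end of that range. No other member had a near copy at 90% identity over at least 50% of its transcript.

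**Figure D2:**
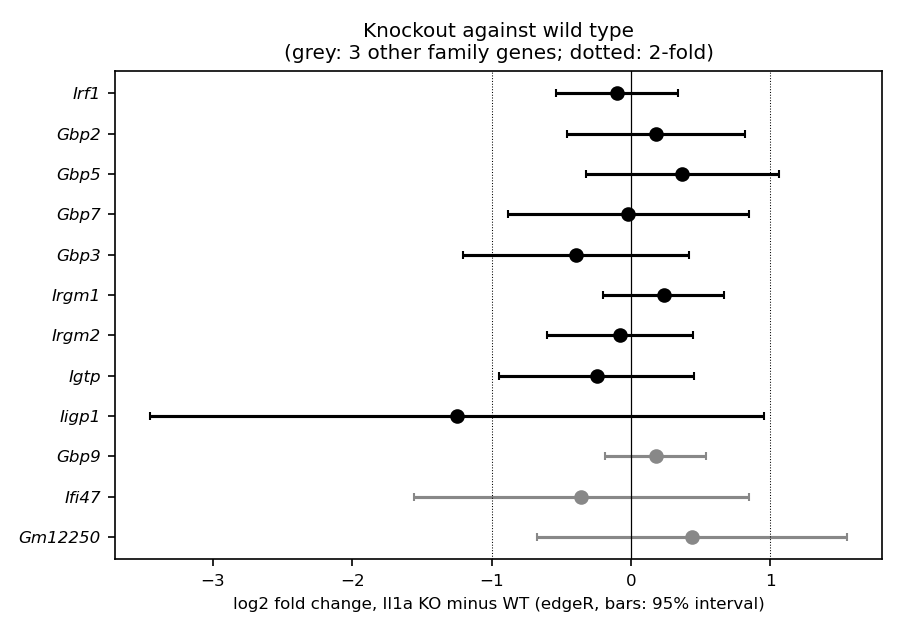
Log2 fold change, knockout minus wild type, from edgeR with 95% intervals for the 9 tested members (black) and 3 other GTPase family genes (grey). Dotted lines mark a 2-fold difference. Every interval includes 0, and that of Iigp1, the gene with the fewest counts, is the widest, from -3.45 to 0.95.

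Levels of different genes were compared per exon length, as RPKM (CPM per kilobase of annotated exon, GENCODE M21). Irf1 at 24.8 ± 5.3 RPKM and Gbp2 at 22.9 ± 7.09 RPKM (SD over 6 libraries) led the list, and each was above the other in 3 of 6 libraries. Below them came Igtp at 7.07 ± 2.34, Irgm1 at 5.96 ± 1.19 and Irgm2 at 5.26 ± 1.22 RPKM, whose ranges overlapped. The order and the shares given here rest on an exon length merged over all annotated transcripts of a gene (2022 bases for Igtp, 5810 for Irgm1). In mean CPM these 3 genes stood in the reverse order, at 34.6 for Irgm1, 19.4 for Irgm2 and 14.3 for Igtp. Gbp2 was above Igtp in all 6 libraries with no overlap of their ranges. Gbp7 followed at 2.81 ± 1.14, Gbp5 at 2.16 ± 0.75 and Gbp3 at 0.902 ± 0.308 RPKM, again with overlapping ranges. Gbp3 was clear of Iigp1 at 0.0721 ± 0.0467 RPKM and Tgtp1 at 0.0503 ± 0.0328 RPKM. The place of Tgtp1 in this order is uncertain, since reads can be shared with its near copy Tgtp2. Of the summed RPKM of the 9 GTPase genes, Gbp2 made up 46.7% ± 2.7 in wild type and 49.6% ± 2.5 in the knockout (SD, n = 3 each), while Iigp1 and Tgtp1 each made up at most 0.234% in any library.

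**Figure D3:**
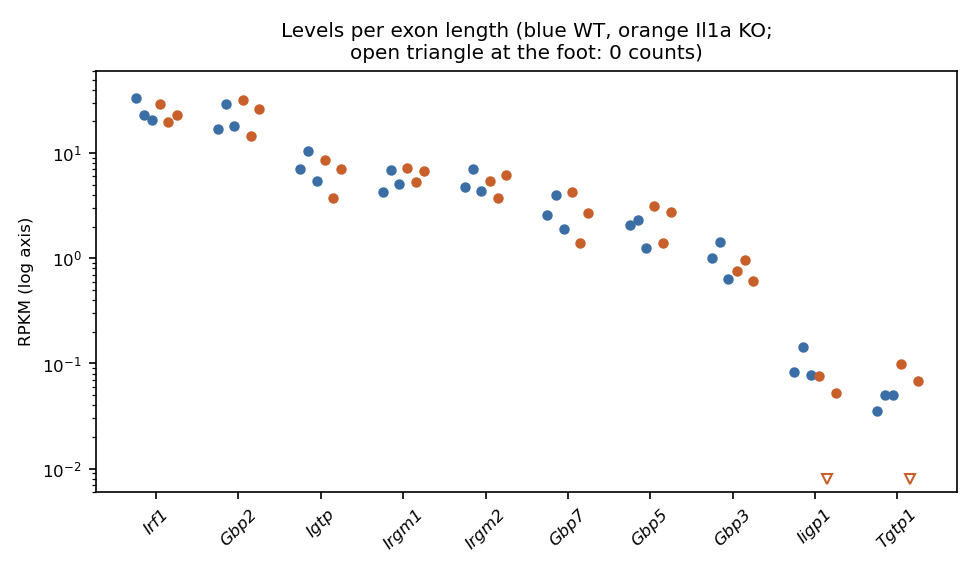
RPKM on a log axis for each member, ordered by the mean over 6 libraries (blue, wild type; orange, knockout). Open triangles at the foot mark libraries with 0 counts. Irf1 and Gbp2 lie between 14.7 and 33.3 RPKM, and Iigp1 and Tgtp1 lie under 0.144 RPKM in every library. The level of Tgtp1 is uncertain because reads can be shared with Tgtp2.

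The abundant GTPase members were high in the same libraries and low in the same libraries, in both genotypes. Of the family genes outside the members, Gbp9 and Ifi47 also had means above 10 CPM. Their correlations with the mean of the members were -0.18 and 0.83. Of the GTPase members, 6 had a mean above 10 CPM (Gbp2, Gbp5, Gbp7, Irgm1, Irgm2 and Igtp, a set chosen after their values were seen). Wild-type replicate 2 and knockout replicate 1 were among the 3 highest libraries for 6 of these 6. Knockout replicate 3 was so for 5 of 6. Wild-type replicate 3 and knockout replicate 2 were each among the 2 lowest for 5 of 6. Across the 6 libraries the 15 pairs of these genes had Pearson correlations of log2 CPM between 0.54 and 0.96, with a median of 0.83. After each genotype's mean was removed the median was 0.90, and without knockout replicate 2 it was 0.76 over 5 libraries. These are descriptions over the same 6 libraries, which the genes share with their depth and composition.

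The members differed in how closely they followed the others. The correlation with the mean of the other tested members was 0.99 for Igtp, 0.97 for Gbp7, 0.87 for Irgm2 and 0.84 for Gbp2. It was 0.74 for Gbp5, 0.71 for Iigp1, 0.53 for Irgm1, 0.46 for Irf1 and 0.16 for Gbp3. For every gene but Iigp1 itself, that mean included Iigp1, whose few counts varied most. The correlation with Iigp1 alone was 0.88 for Igtp and 0.22 for Irgm1, so this order depends in part on Iigp1. Irf1 was highest in wild-type replicate 1, a library in which Gbp2 and Irgm1 were low. Within genotypes the SD of log2 CPM was 0.30 for Irgm1 to 0.96 for Iigp1, with a median of 0.50 over the 9 tested members. Over all tested genes the median was 0.34 and the middle 50% ran from 0.20 to 0.58.

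Levels of cell type markers were set beside the GTPase levels of each library. The mean of the 8 tested GTPase genes, each centred on its own mean log2 CPM, was 0.54 in wild-type replicate 2, 0.34 in knockout replicate 1 and 0.08 in knockout replicate 3. It was -0.02 in wild-type replicate 1, -0.28 in wild-type replicate 3 and -0.67 in knockout replicate 2. Iigp1, a gene of few counts, weighed on this mean. Its centred value was 1.11 in wild-type replicate 2 and -2.09 in knockout replicate 2, farther from 0 than any other member there. Epithelial markers (Krt5, Krt14 and 4 others) did not follow the GTPase mean. They were highest in wild-type replicate 2 at 158.8 CPM and next in knockout replicate 2 at 127.0 CPM. These were the libraries with the highest and the lowest GTPase mean. Knockout replicate 1, with a GTPase mean of 0.34, had the lowest epithelial sum at 49.1 CPM. The 12 neutrophil markers summed to 41684 CPM in wild-type replicate 2 and 35877 CPM in knockout replicate 2, the highest and the lowest of the 6. The libraries between them did not keep the GTPase order. Knockout replicate 1, with a GTPase mean of 0.34, was at 36914 CPM, below wild-type replicate 3 at 37785 CPM, whose GTPase mean was -0.28. In knockout replicate 2, C1qb and Mrc1 were at 8.29 and 5.18 CPM, the highest of any library. The part of cell composition in the GTPase levels was not tested, and fewer cells of a type and less RNA per cell cannot be told apart in bulk RNA.

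**Figure D4:**
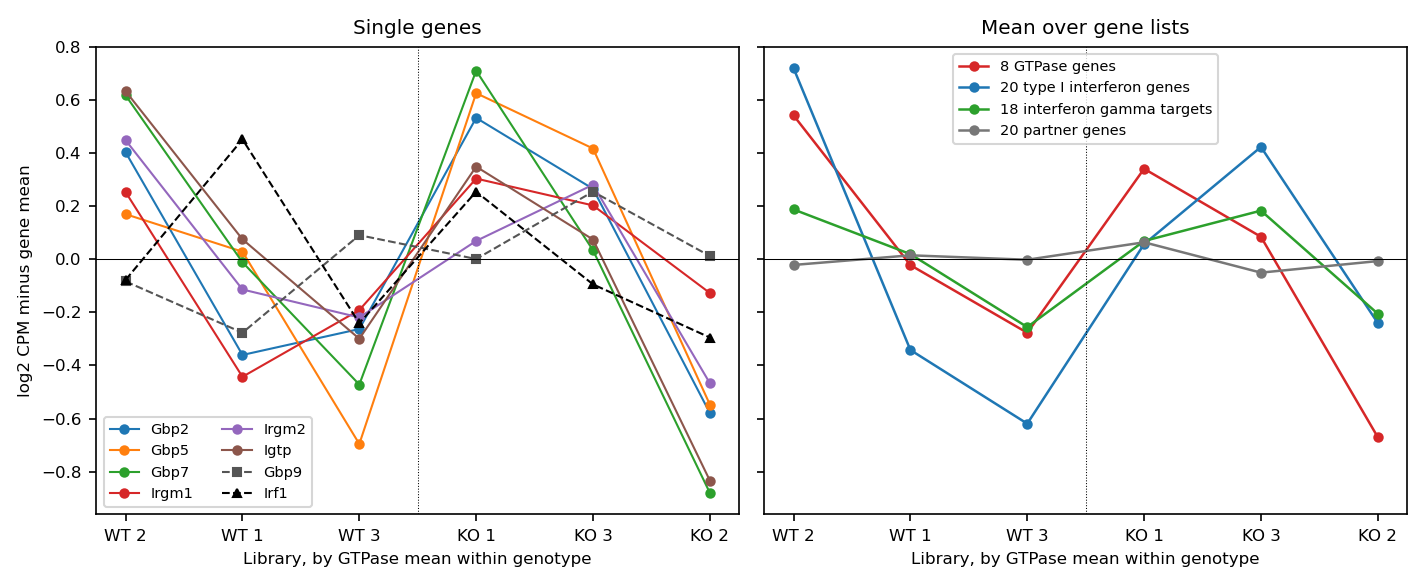
Log2 CPM minus the mean over 6 libraries, for single genes (left) and averaged over gene lists (right), with libraries ordered within each genotype by the mean of the 8 tested GTPase genes. The 6 GTPase members with a mean above 10 CPM are high in wild-type replicate 2 and knockout replicate 1. For 5 of the 6, knockout replicate 2 is among the 2 lowest. Gbp9, also above 10 CPM but outside the members, stays within -0.28 to 0.26 in a different order.

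Other genes of both families mostly had few counts. Of 7 further GBP genes, 6 were under 1 CPM in every library (Gbp2b, Gbp4, Gbp6, Gbp8, Gbp10 and Gbp11), and Gbp11 had 0 counts throughout. Gbp9 was the exception, at 15.98, 18.3 and 20.6 CPM in wild type and 19.4, 19.5 and 23.1 CPM in the knockout. It varied 1.45-fold between libraries, and its correlation with the mean of the members was -0.18. The transcripts of Gbp4, Gbp6, Gbp8, Gbp9, Gbp10 and Gbp11 match one another or Gm43302 at over 90% identity, up to 99.8% for Gbp6 and Gm43302. Reads can be shared among them, so these levels are uncertain and a low count does not show low expression. Of 8 further IRG and related genes 5 were tested. Ifi47 (Irgd) reached 27.8 CPM in wild-type replicate 2 against 6.66 to 14.3 CPM in the other 5 libraries, with a correlation of 0.83 to the members. Gm12250 (Irgb10), which acts on the bacterial membrane, was at 1.35, 3.64 and 1.19 CPM and 3.14, 1.51 and 3.76 CPM. Gvin1, a very large interferon-inducible GTPase with near copies, and Irgc1, a family member of the testis, were at most 0.974 and 1.96 CPM. None of the 7 tested family genes outside the members was called (edgeR adjusted p of 0.94 or above), and 0 had an unadjusted p under 0.05.

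The pathway upstream of the GTPase genes was expressed except for its ligand. Ifng had 0 counts in all 6 libraries, which allows at most 0.131 CPM in the shallowest. The receptor genes Ifngr1 (85.8 to 113.2 CPM) and Ifngr2 (166.7 to 220.3 CPM), and the kinase genes Jak1 (681.7 to 881.0 CPM) and Jak2 (511.4 to 664.3 CPM), were well covered. Of 14 tested signalling genes in a list of 15, 0 were called and 0 had an unadjusted p under 0.05. The lowest p-values in that list belonged to Irf8 (0.304 ± 0.201 and 0.947 ± 0.386 CPM), Stat2 (50.3 ± 5.3 and 56.3 ± 6.6 CPM), Pias1 (89.2 ± 1.3 and 81.8 ± 3.2 CPM) and the feedback inhibitor gene Socs1 (20.3 ± 3.6 and 17.8 ± 2.2 CPM). Irf8 encodes a factor of monocyte and dendritic lineages, and its edgeR adjusted p was 0.835. The 7 dendritic markers, in the same libraries, summed to 3.22 to 4.02 CPM in wild type and 3.898 to 10.6 CPM in the knockout. Only 4 of them were tested, 2 with a higher and 2 with a lower estimate in the knockout, and 0 were called. Their part in the Irf8 level was not tested.

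Targets of interferon gamma other than the GTPases were not called either. Of 20 genes 18 were tested, 10 with a positive and 8 with a negative estimate, and the median log2 fold change was 0.01. Nos2, the inducible nitric oxide synthase gene, was at 196.3, 182.2 and 128.2 CPM in wild type and 253.2, 237.2 and 234.2 CPM in the knockout. Its groups did not overlap, as for 6.12% of all tested genes in that direction (log2 fold change 0.52, SE 0.16, edgeR adjusted p = 0.58). Nlrc5, the class I transactivator gene, was at 31.6 ± 5.5 and 40.8 ± 5.0 CPM, and Tap1, a peptide transporter gene, at 56.5 ± 4.8 and 69.5 ± 14.7 CPM. Icam1 was at 1077 ± 130 and 1201 ± 19 CPM (SD, n = 3 each). Nos2 and Nlrc5 were the 2 genes of the list with an unadjusted p under 0.05. The chemokine genes differed widely in level, with Cxcl9 at 0.129 to 0.561 CPM and Cxcl10 at 5.05 to 24.5 CPM.

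Type I interferon targets were, like the GTPase genes, highest in wild-type replicate 2, but the order of the other libraries differed. Of 20 tested genes 0 were called and 1 (Bst2) had an unadjusted p under 0.05, with 10 positive and 10 negative estimates and a median log2 fold change of 0.01. Their centred mean was highest in wild-type replicate 2 at 0.72 and lowest in wild-type replicate 3 at -0.62, whereas knockout replicate 2, the lowest library for the GTPase genes, was at -0.24. Isg15, a ubiquitin-like modifier gene, was at 89.7, 196.9 and 90.8 CPM in wild type and 125.6, 105.5 and 146.0 CPM in the knockout. Bst2, the tetherin gene, was at 1.99 ± 0.96 and 3.60 ± 0.31 CPM, Oas1a at 18.3 ± 7.3 and 24.4 ± 3.3 CPM, the nucleic acid sensor gene Zbp1 at 19.1 ± 7.0 and 24.1 ± 4.2 CPM, and Usp18 at 12.7 ± 9.3 and 8.93 ± 4.03 CPM. The ISRE letters were found for 7 of the 15 genes of this list with a promoter window, and GAS letters for 3.

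Genes whose proteins work with the GTPases (inflammasome, LC3 conjugation and prenylation genes) were not called either. Of 20 tested genes 0 were called, and 1, the inflammasome adaptor gene Pycard, had an unadjusted p under 0.05. Pycard was at 4.98, 4.19 and 3.47 CPM in wild type and 6.95, 8.76 and 5.68 CPM in the knockout (log2 fold change 0.76, SE 0.26, edgeR adjusted p = 0.68). Gabarapl1 was at 5.01 ± 0.51 and 6.46 ± 0.84 CPM, Map1lc3b, the LC3B gene, at 289.4 ± 28.6 and 252.7 ± 24.2 CPM, and Gsdmd, the pyroptosis effector gene, at 59.6 ± 7.9 and 67.8 ± 6.1 CPM (SD, n = 3 each). Casp4, the caspase-11 gene, was at 218.9 ± 20.4 and 240.9 ± 36.1 CPM. The centred mean of this list, in which genes that move in opposite directions offset each other, was between -0.05 and 0.06 in all libraries. Of its 15 genes with a promoter window, 0 had the ISRE letters and 2 (Gabarap and Gabarapl1) the GAS letters.

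Of 5656 tested genes averaging 5 CPM or more, the 8 whose log2 CPM followed the mean of the members most closely over the 6 libraries were Tdrd7, Capg, Dap, Vim, Slc35b1, Il18bp, Psmb9 and Trim30d, with Pearson correlations of 0.997 to 0.966. Tdrd7 was at 36.003, 41.2 and 32.5 CPM in wild type and 40.5, 28.8 and 36.6 CPM in the knockout. Psmb9, an immunoproteasome subunit gene of the list of interferon gamma targets, was at 7.45, 8.60 and 4.47 CPM and 7.95, 3.24 and 6.11 CPM. Wild-type replicate 2 or knockout replicate 1 was their highest library and knockout replicate 2 their lowest. That follows from choosing the 8 genes by this correlation over the same libraries and is no separate observation. Without knockout replicate 2 the correlations of the 8 genes were 0.915 to 0.994 over 5 libraries. Iigp1, a gene of few counts, also weighed on this mean of the members. High values arose for many genes: 1.26% of the 5656 genes had a correlation above 0.9, and the central 95% ran from -0.85 to 0.85.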

How the data were processed

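Per the submitters' processing notes the reads were handled with FastQC 0.11.9, Trimmomatic 0.39 and STAR 2.7.8a on GRCm38 (mm10). Per the labels' protocols the libraries were made with a SMART-Seq v4 low-input kit, which does not mark strand. What the authors deposited is a table of raw whole-number counts by gene for each library. Its unstranded column was used here, and the sum of its 2 strand columns as an alternative. Annotation release and filters were not given in the sources used here. GENCODE M21 gave symbols, positions and exon lengths for 54809 of 54838 genes and all 163 list entries.

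Counts were filtered by edgeR's default rule (11924 genes kept), scaled with TMM factors and compared by the robust quasi-likelihood test of edgeR 4.0.16 in R 4.3.3, without a replicate term. P-values were adjusted by Benjamini-Hochberg over all tested genes, with a threshold of 0.05. Log2 CPM used a prior count of 3. Alternatives used DESeq2 1.42.0 and limma-voom 3.58.1, other normalizations and filters, a replicate term, the strand columns, and each library left out. The procedure was tested on simulated data, with changes set only in genes averaging 5 CPM or more. Gbp3, Iigp1 and Tgtp1 were below that level, so the simulation does not cover them. Near copies were searched with blastn 2.17.0.

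The members and lists were chosen with earlier results of these data known. Named by rule were all members, up to 4 genes per list by smallest p, Il1a, and 8 genes of like pattern; other genes were chosen after their values were seen. For 3 against 3 libraries the smallest two-sided p of an exact permutation test is 0.1.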

Additional observations from a re-analysis of the deposited data

How the results depend on the processing

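No member was called under any of the 14 alternatives run, in which 113 of 124 member estimates kept their sign and adjusted p-values ranged from 0.69 to 0.9999. Of the 11 that changed sign, 10 came from leaving a library out, and in the other Gbp7 was at 0.043 (log2) with library size alone. With single libraries left out, the log2 fold change ranged from -0.074 to 0.46 for Gbp2, -0.48 to 0.32 for Gbp7, -0.25 to 0.16 for Irgm2, -0.51 to 0.044 for Igtp and -0.27 to 0.12 for Irf1, and outside the members from -1.32 to 0.36 for Gbp4, -0.69 to 0.54 for Ifi47 and -0.94 to 0.28 for Usp18. Of these ranges, the upper ends of Gbp2, Gbp7, Irgm2, Igtp, Ifi47 and Usp18 came without wild-type replicate 2. Those of Irf1 and Gbp4 came without wild-type replicate 1. Over all genes, the counts called higher and lower (9 and 3) became 105 and 80 without a filter, 15 and 6 with at least 5 CPM in 3 libraries, 49 and 21 by DESeq2, and 4 to 19 and 3 to 5 with single libraries left out (19 and 5 without knockout replicate 1, 4 and 3 without wild-type replicate 1 or 2); the cause was not tested. With the replicate block they were 17 and 3, and 0 members were called. Same-numbered libraries had correlations of deviations from the group mean of 0.14, 0.06 and 0.00. Wild-type replicates 1 and 2 correlated best with the knockout library of the same number, and wild-type replicate 3 with knockout replicate 2 (0.145). The labels do not name pairs, and the numbers were not taken as pairs. Iigp1 and Tgtp1 rest on at most 26 counts per library, which limits their precision.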
